A study of Mus musculus with 8 samples.

Results

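The genes described here are 46 genes of mitosis and chromosome segregation, taken by symbol from a deposited table of 16940 genes. They cover CDK1 and its cyclins, the mitotic kinases and the chromosomal passenger complex, the spindle checkpoint, the kinetochore, spindle motors, cytokinesis, condensin and other chromosome proteins, and separase with its inhibitor securin. In mitosis, CDK1 bound to a B-type cyclin drives entry, Aurora and Polo kinases build the spindle, and the spindle checkpoint delays the anaphase-promoting complex until kinetochores are attached. Destruction of cyclin B and securin then frees separase, which cuts cohesin and lets sister chromatids part. Many of these genes are transcribed mostly in late S, G2 and M phase, through promoter elements bound by NF-Y and by the MuvB core with B-MYB or FOXM1. Mouse embryonic stem cells cycle fast and with a short G1 phase, so such genes are active in a large share of an unsorted culture.

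Nascent RNA was measured by TT-seq, in which a pulse of 4-thiouridine (15 min at 400 µM) marks newly made RNA for capture and sequencing. The cells were E14 mouse embryonic stem cells grown without serum, with leukemia inhibitory factor, PD0325901 and CHIR99021. In all groups CTCF, the DNA-binding protein that anchors chromatin loops, carried an auxin-inducible degron (the label CTCF AID), so that the auxin IAA removes the tagged protein. The 4 groups were a control overexpression line without IAA, the same line after 12 h of IAA, a line that overexpressed wild-type CTCF after 12 h of IAA, and a line that overexpressed mutated CTCF after 12 h of IAA. The labels name neither the mutation nor the promoter of the transgenes, nor do they say whether a line is 1 clone. Each group had 2 replicates, and nothing says that these came from separate cultures, so p-values measure only the spread between such libraries. Either overexpressing line was measured with IAA only, so a difference between lines can hold both the transgene and any other difference between the lines. The degron acts on the protein, which TT-seq does not measure.

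Libraries of 1 group correlated at r = 0.995 to 0.996 over log2 values and libraries of different groups at 0.983 to 0.990, across genes. All 8 pluripotency markers checked were present. Their sum was 50301 to 51171 normalized reads untreated, 53116 to 54442 with IAA, 57664 to 61546 with wild-type CTCF and 57431 to 60165 with mutated CTCF, so it moved with the groups. Marker lists of 5 other lineages summed to between 42.8 and 904 normalized reads. The highest of these, 3 listed trophoblast markers, summed to 566 to 575 untreated, 617 to 634 with IAA, 818 to 904 with wild-type CTCF and 580 to 607 with mutated CTCF. The 4 listed primitive endoderm markers summed to 195 to 228 untreated, 269 to 331 with IAA, 233 to 262 with wild-type CTCF and 256 to 259 with mutated CTCF. The 1 listed fibroblast marker was at 88.6 to 98.3 untreated, 155 in both control libraries with IAA, 97.9 to 139 with wild-type CTCF and 88.0 to 90.9 with mutated CTCF. Neuroectoderm markers summed to 224 to 236 untreated and 269 to 331 in the libraries with IAA, and mesoderm markers to 89.2 to 93.1 with wild-type CTCF and 42.8 to 69.0 in the other groups. The part of these shifts in the results below was not tested. The values are the authors' normalized reads, in which 1 read was worth 0.836 to 1.19 in the 7 libraries where whole reads were recovered (15671114 to 21561141 reads). A test across 15818 genes used limma on log2(value + 1), and all fold changes are on that scale. A gene is called higher or lower at an adjusted p under 0.05.

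All 46 genes were listed and tested, and their means over the 8 libraries ran from 365 to 10743 normalized reads with a median of 1863. The median over all tested genes was 249. Because a higher level gives a smaller error, shares called are set below against all tested genes and also against the 6742 tested genes whose mean lies in the range of the 46, a background added after the data were seen. Changes were small. No mitosis gene reached a 1.5-fold change in the 4 comparisons of IAA, wild-type CTCF, mutated CTCF and mutated against wild-type CTCF. In 1 or more of these, 36 of the 46 genes were called, and Cenpf was called in all 4. Each comparison alone called 43.6% to 50.6% of the genes in the level range. The share of those genes called in 1 or more was not counted, so the 36 stands without a background. The 10 mitosis genes called in none were Ccna2, Aurkb, Bub3, Mad2l1, Ndc80, Spc25, Kif11, Smc4, Ncaph and Espl1.

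Summed over the 46 genes, mitosis transcripts took 0.653% and 0.654% of the normalized reads of the 2 untreated control libraries. With IAA the control line gave 0.617% and 0.609%, and the line with wild-type CTCF 0.609% and 0.601%. The line with mutated CTCF gave 0.649% and 0.652%. The untreated and mutated CTCF libraries thus lay above the control and wild-type CTCF libraries with IAA, without overlap. Taking a share amounts to setting all library totals equal, which is 1 choice of scale among others. The sums themselves, in the authors' normalized reads, did not split this way. They were 116595 and 120325 untreated, 115086 and 115096 with IAA, 114797 and 117491 with wild-type CTCF, and 123817 and 126052 with mutated CTCF, so wild-type CTCF overlapped the untreated control. The library totals moved too, from 17864570 and 18391684 untreated to between 18666732 and 19533253 in the 6 libraries with IAA, and their part in the share was not tested. The share was not tested either, because the genes were chosen with earlier results of these data known. In a bulk culture fewer cells in G2 and M phase and less RNA per cell cannot be told apart. The mutated CTCF line had the highest of the 4 group means for 25 of the 46 genes and the lowest for 0. The control with IAA had the lowest for 22 and the highest for 1. These ranks are on the authors' scale and were not counted over all genes. On that scale the median of all tested genes was also above 0 with mutated CTCF, at 0.06 against the control with IAA and 0.05 against the untreated control. Of the single libraries, the second with mutated CTCF was highest for 22 mitosis genes and the first for 6.

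**Figure D1:**
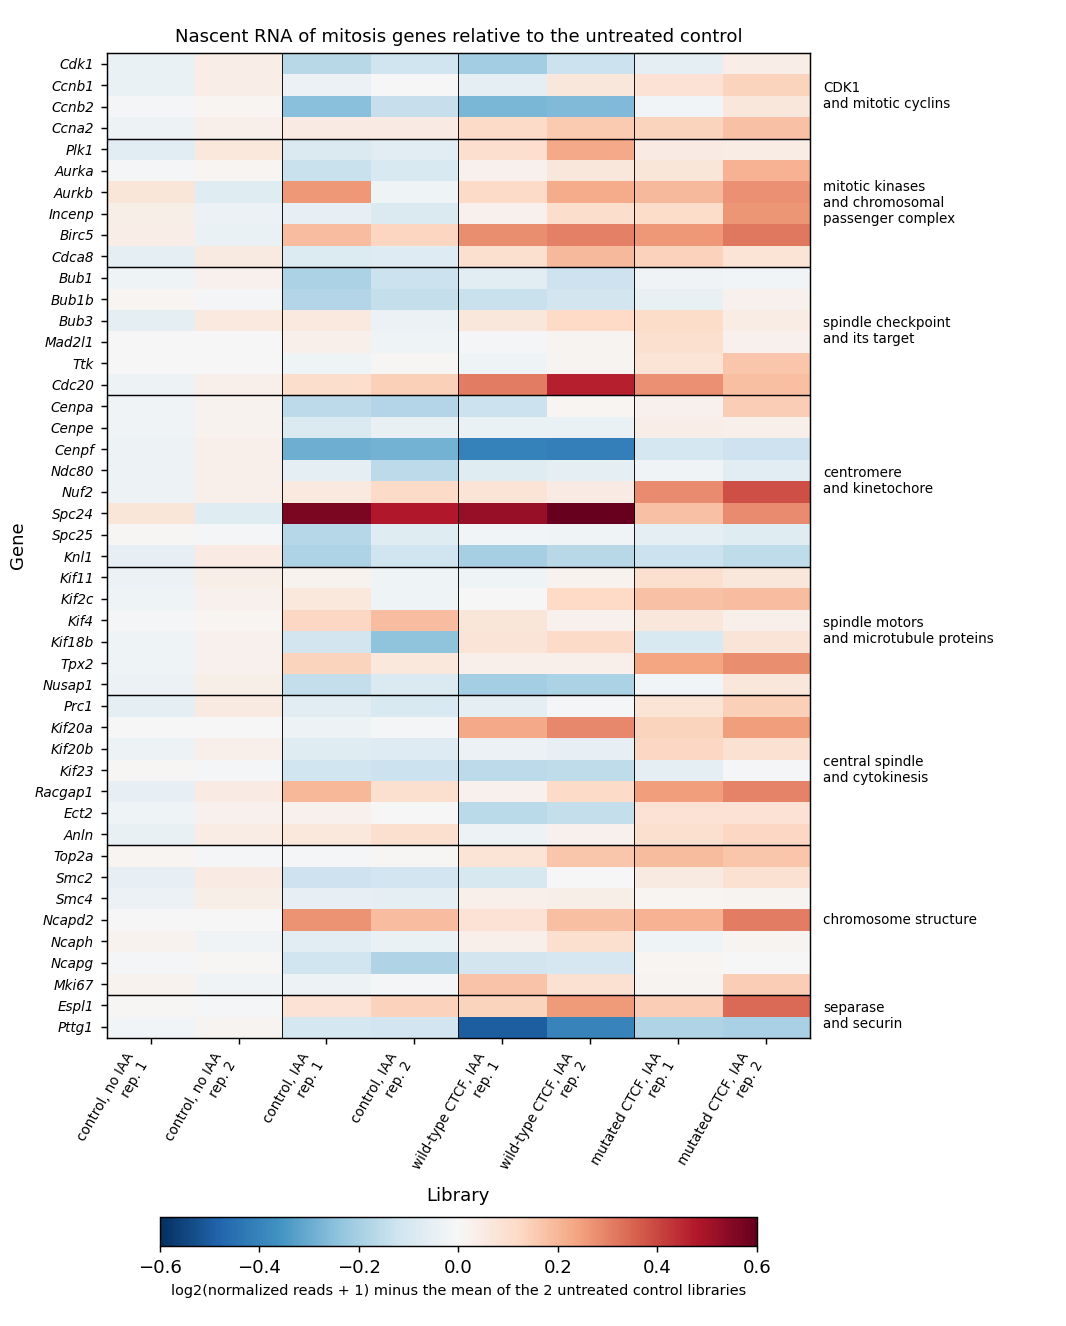
Nascent RNA of the 46 mitosis genes (rows, by role) in each of the 8 libraries (columns), as log2(normalized reads + 1) minus the mean of the 2 untreated control libraries. Blue is lower and red is higher. Values stay within about 0.6 of 0. Spc24 is highest in the control and wild-type CTCF libraries with IAA, and Cenpf and Pttg1 are lowest with wild-type CTCF. On the authors' scale the mutated CTCF columns hold the highest group mean for 25 genes. The first of these columns is the highest library for 6 genes and the second for 22.

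Adding IAA to the control line lowered 12 mitosis genes and raised 6, with the other 28 not called. The genes that fell were Cdk1, Ccnb2, Bub1, Bub1b, Cenpa, Cenpf, Knl1, Kif18b, Nusap1, Kif23, Smc2 and Ncapg. Spc24, Ncapd2, Birc5, Kif4, Racgap1 and Tpx2 rose. Of all tested genes, 18.4% were called lower and 19.4% higher. Within the level range of the mitosis genes the shares were 23.3% and 26.5%, so the share lowered here (26.1%) was near the background and the share raised (13.0%) was below it. The median log2 fold change was -0.05 over the 46 genes and 0.00 over all tested genes. After rescaling libraries to the same total, 22 were called lower (47.8%) and 3 higher (6.52%), against 35.8% and 21.2% in the level range and 25.9% and 16.2% of all genes. Calls lower dropped to 4 without the second untreated library or the first control library with IAA, and calls higher to 3 without the latter or the first untreated library. The 4 are 8.70%, below the 15.3% and 17.1% lower in the level range (11.3% and 13.1% of all genes), and the 3 are 6.52%, below the 22.1% and 19.0% higher there (15.8% and 13.6% of all genes). Only Cenpf, Bub1b, Spc24 and Ncapd2 kept their call with each library left out in turn and under both rescalings. In a fit without the mean-variance trend, in which errors are drawn toward 1 value common to all levels, 2 were higher and 1 lower (4.35% and 2.17%, against 12.3% and 12.6% of all genes and 14.2% and 14.1% in the level range), and Bub1b was among the calls lost.

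Wild-type CTCF, set against the control line with both under IAA, raised 9 mitosis genes and lowered 4. Those higher were Plk1, Aurka, Incenp, Cdca8, Cdc20, Kif18b, Kif20a, Top2a and Mki67, and those lower were Pttg1, Ect2, Cenpf and Kif4. All tested genes were called higher in 21.5% and lower in 10.01% (32.2% and 11.9% in the same level range), so the mitosis genes, at 19.6% and 8.70%, did not exceed the background in either direction on the authors' scale. The median was 0.04 over the 46 genes and 0.06 over all tested genes. With libraries rescaled by median of ratios the split turned to 5 higher and 9 lower, or 10.9% and 19.6%, against 16.1% and 15.9% of all genes and 23.5% and 21.6% in the level range. With equal totals it was 8 higher and 9 lower, or 17.4% and 19.6%, against 19.3% and 13.6% of all genes and 28.8% and 17.8% in the level range. Median of ratios lost 4 calls and gained 5. The calls lost were those of Aurka (0.10, adjusted p = 0.079), Incenp (0.077, adjusted p = 0.17), Top2a (0.071, adjusted p = 0.075) and Mki67 (0.095, adjusted p = 0.063). Calls higher dropped to 5 without the first control library with IAA and to 4 without the second wild-type CTCF library, and calls lower to 2 without the latter or the second control library with IAA. The shares higher were then 10.9% and 8.70%, against 21.7% and 19.9% in the level range (14.0% and 12.4% of all genes). The share lower was 4.35%, against 10.5% and 7.05% in the level range (8.30% and 5.90% of all genes). Cdca8, Kif18b, Kif20a, Ect2 and Pttg1 kept their call with each library left out and under both rescalings, and of these Kif20a and Pttg1 also without the mean-variance trend. They were the 1 gene higher and the 1 lower in that fit (2.17% each, against 10.1% and 4.99% of all genes).

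Mutated CTCF against the same control libraries gave 25 mitosis genes higher and 2 lower. All tested genes were called higher in 22.0% and lower in 12.4% (37.0% and 13.6% in the same level range), against 54.3% and 4.35% of the mitosis genes. The median log2 fold change was 0.13 over the 46 genes, 0.08 in the level range and 0.06 over all tested genes. On this scale 43 of the 46 had a fold change above 0, and the share of all genes above 0 was not counted. Under median-of-ratios rescaling 15 were called higher (32.6%, against 17.1% of all genes and 28.4% in the level range), and with equal totals 21 (45.7%, against 19.7% and 33.2%). The 10 calls lost under median of ratios were Cdk1, Ccnb1, Bub1, Ttk, Cenpe, Kif2c, Kif18b, Nusap1, Racgap1 and Ect2. Leaving out the second mutated CTCF library left 13 called higher (28.3%), close to the 26.2% in the level range (15.0% of all genes). Leaving out the first control library with IAA left 16 (34.8%, against 25.7% in the level range and 15.0% of all genes). Without the mean-variance trend only 4 were called higher (8.70%), below the 12.1% of all genes and the 18.1% in the level range. Aurka, Incenp, Cenpa, Cenpf, Nuf2, Prc1, Kif20b, Top2a and Smc2 kept their call with each library left out and under both rescalings, and of these Aurka, Cenpf, Nuf2 and Kif20b also without the trend.

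Set directly against each other under IAA, the mutated CTCF line was higher than the wild-type CTCF line in 18 mitosis genes and lower in 1, Spc24. Of all tested genes, 16.3% were higher and 18.4% lower (22.7% and 21.0% in the same level range), against 39.1% and 2.17% of the mitosis genes. The median log2 fold change was 0.09 over the 46 genes and -0.01 over all tested genes. Both rescalings gave 22 higher and 1 lower (47.8% higher, against 26.7% and 25.9% in the level range and 18.4% and 17.9% of all genes). Without the second mutated CTCF library, or without the first wild-type CTCF library, 9 were higher (19.6%, against 16.2% in the level range in either case and 11.3% and 12.1% of all genes). Without the mean-variance trend 7 were higher (15.2%, against 10.4% in the level range and 9.27% of all genes). Ccnb2, Cenpf, Nuf2, Tpx2, Nusap1, Kif20b, Racgap1 and Ect2 (higher) and Spc24 (lower) kept their call with each library left out and under both rescalings, and all of these but Kif20b and Racgap1 also without the trend.

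**Figure D2:**
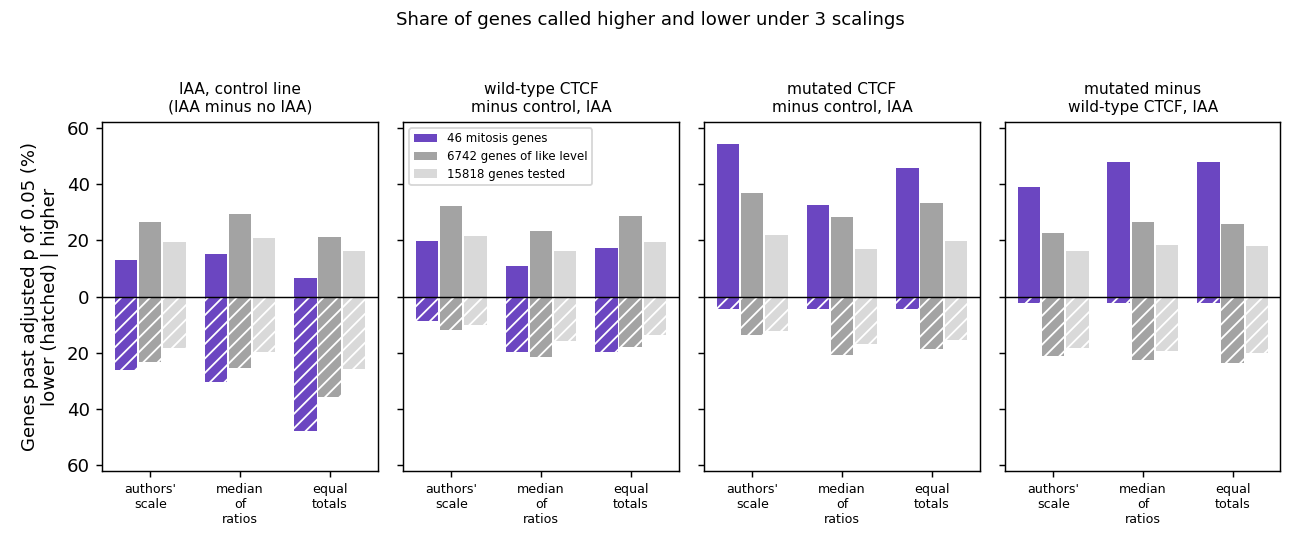
Percent of genes called higher (above 0) and lower (hatched, below 0) in 4 comparisons, for the 46 mitosis genes, 6742 genes of like level and all 15818 tested genes, each under the authors' scale, median-of-ratios rescaling and equal totals. In the comparison of mutated with wild-type CTCF, 39.1% to 47.8% of the mitosis genes were higher and 2.17% lower under every scaling shown.

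**Figure D3:**
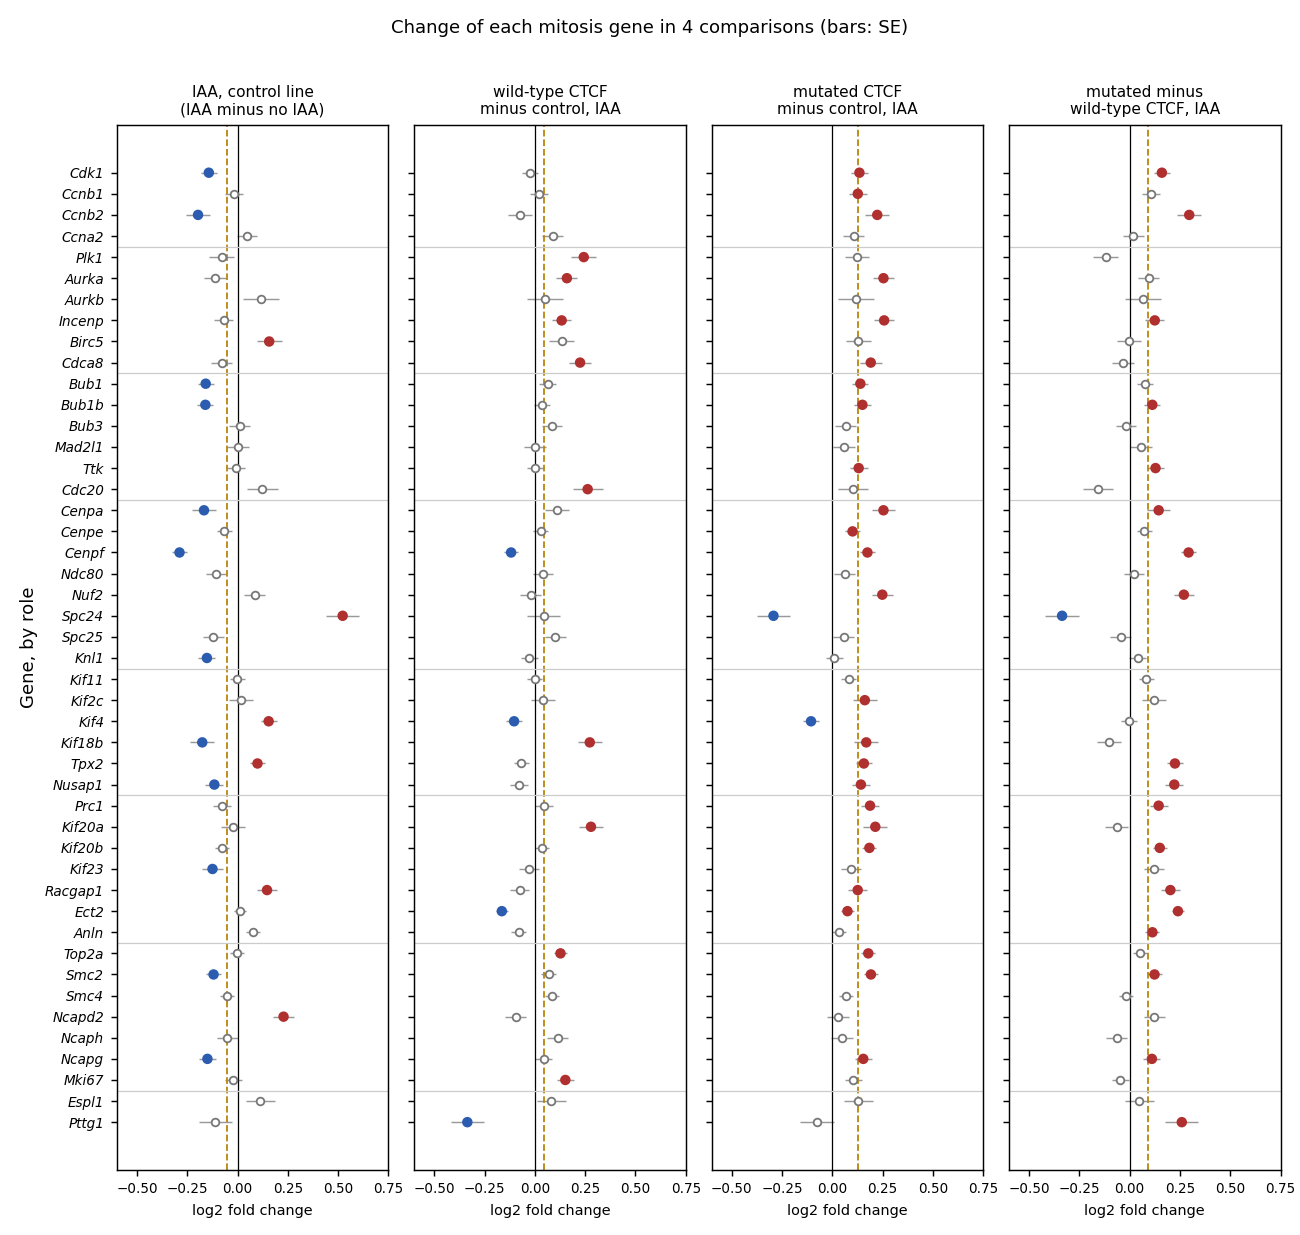
The log2 fold change of each mitosis gene (rows, by role) in 4 comparisons, with bars for the standard error from limma. Filled points are called (red higher, blue lower), open points are not called, and the dashed line is the median of the 46 genes, which lies at -0.05, 0.04, 0.13 and 0.09.

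The IAA comparison and the comparison of mutated with wild-type CTCF share no library. Of the 12 genes that fell with IAA, 8 were higher with mutated than with wild-type CTCF (66.7%), and 0 were lower. Of the 2905 tested genes that fell with IAA, 25.6% were higher in that comparison and 16.8% lower (31.3% and 17.5% of the 1569 in the level range). Of the 6 mitosis genes that rose with IAA, 2 were higher between the forms and 1 was lower, where 15.4% and 31.7% of the 3062 tested genes that rose were (19.0% and 33.9% in the level range). These overlaps rest on 12 and 6 genes and were not tested, and 39.1% of all 46 were higher between the forms. Of the 8 genes that fell with IAA and were higher between the forms, only Cenpf was called in both without the mean-variance trend. The same held with each library left out in turn. Across the 46 genes the 2 fold changes had Pearson's r = -0.41 and Spearman's rho = -0.21, against -0.12 and -0.14 across all tested genes. Spc24 had the highest of the 46 changes with IAA (0.52) and the lowest between the forms (-0.34). Pearson's r without it was not computed. Genes are not independent replicates, and these coefficients are given as a description of the 8 libraries.

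Promoter sequences were looked at because many of these genes moved in the same direction. RefSeq promoter windows (250 bases before to 50 after the gene start, GRCm38.p6) were found for 39 of the 46. None was found for Ccna2, Aurkb, Incenp, Spc24, Tpx2, Kif20a and Smc4. Motifs searched on both strands were the core of the cell cycle genes homology region, CHR (TTTGAA or TTCGAA), which MuvB complexes bind, and the NF-Y box CCAAT. A CHR core was present in 31 of the 39 (79.5%), against 21.7% of 27025 genes with a window. An NF-Y box was present in 28 (71.8%, against 41.1%), and both were present in 66.7%, against 8.6%. Matches of the 2 motifs were counted separately, and in Cdca8 they share a base. Within 50 bases on either side of the start, a distance chosen after the positions were seen, 28 of 39 (71.8%) had a CHR core, against 6.1% of all genes. The core lay after the start in 20 genes. Genes with neither motif were 6: Birc5, Mad2l1, Nuf2, Nusap1, Ncaph and Pttg1. Genes with and without a CHR core had medians of 0.11 (n = 31, 13 called higher) and 0.09 (n = 8, 3 called higher) in mutated against wild-type CTCF. With IAA the medians were -0.08 (3 higher, 11 lower) and -0.03 (1 higher, 1 lower). Against the control with IAA they were 0.04 (7 higher, 3 lower) and 0.01 (0 higher, 1 lower) for wild-type CTCF. For mutated CTCF they were 0.13 (18 higher, 1 lower) and 0.11 (4 higher, 0 lower). No test compared genes with and without a core. A match is a description of the letters, not of binding.

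**Figure D4:**
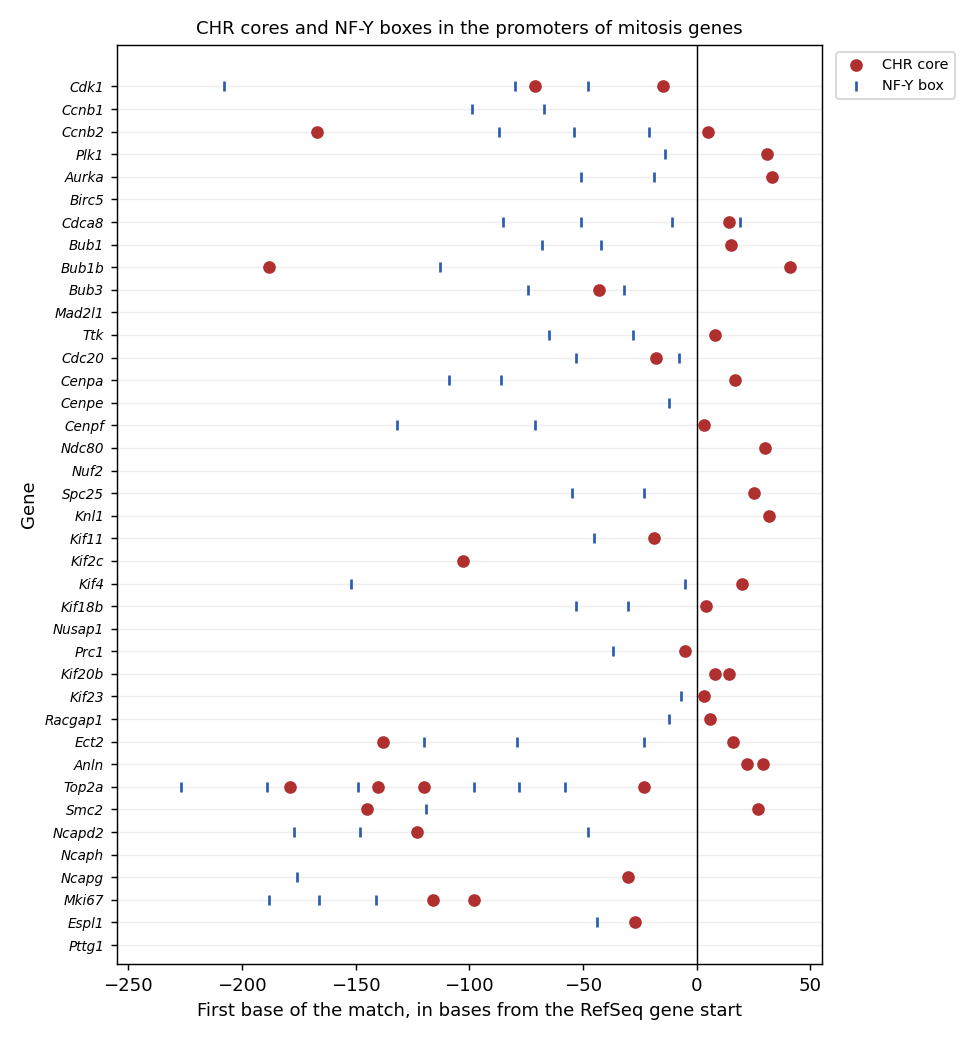
Position of each CHR core (red circles) and NF-Y box (blue ticks) in the promoter windows of the 39 mitosis genes with a RefSeq entry, in bases from the gene start (vertical line at 0, transcription to the right). CHR cores cluster within 50 bases of the start in 28 genes, mostly with NF-Y boxes before them; 6 genes have neither.

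The following stretches hold the 100 bases before the gene start on the coding strand (RefSeq, GRCm38.p6), with CHR cores and NF-Y boxes in capitals, TTCAAA and ATTGG being the same motifs read on the other strand. Cdk1 (chr10:69352913-69353012, minus strand), Cdc20 (chr4:118437344-118437443, minus strand) and Top2a (chr11:99024190-99024289, minus strand) show both motifs before the start. Ccnb2 (chr9:70421555-70421654, minus strand) and Cenpf (chr1:189688087-189688186, minus strand) show NF-Y boxes, and each has a CHR core just after the start. Ccnb2 has another core at -167, outside the stretch shown. Pttg1 (chr11:43425982-43426081, minus strand) is shown because none of these letters occurs in its window.
Cdk1: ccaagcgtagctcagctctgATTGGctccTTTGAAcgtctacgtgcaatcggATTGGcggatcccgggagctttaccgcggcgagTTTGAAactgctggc
Cdc20: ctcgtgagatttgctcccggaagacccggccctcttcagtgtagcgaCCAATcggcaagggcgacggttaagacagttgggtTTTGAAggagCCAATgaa
Top2a: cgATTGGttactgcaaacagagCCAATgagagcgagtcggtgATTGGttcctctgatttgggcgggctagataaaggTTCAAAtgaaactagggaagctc
Ccnb2: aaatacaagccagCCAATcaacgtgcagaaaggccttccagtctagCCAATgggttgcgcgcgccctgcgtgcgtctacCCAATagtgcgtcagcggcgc
Cenpf: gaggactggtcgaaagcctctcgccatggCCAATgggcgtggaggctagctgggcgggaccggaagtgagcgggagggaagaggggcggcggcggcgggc
Pttg1: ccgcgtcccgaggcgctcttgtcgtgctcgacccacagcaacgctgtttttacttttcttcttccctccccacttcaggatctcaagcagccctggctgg

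CHR cores close to the start are printed with their 30-base surroundings for 6 genes described below, the core in capitals: Ccnb2 (chr9:70421533-70421562, minus strand), Cenpf (chr1:189688067-189688096, minus strand), Plk1 (chr7:122159453-122159482, plus strand), Aurka (chr2:172370521-172370550, minus strand), Cenpa (chr5:30666890-30666919, plus strand) and Kif18b (chr11:102925104-102925133, minus strand). All 6 carry the letters TTTGAA on the coding strand, and the bases around them differ.
Ccnb2: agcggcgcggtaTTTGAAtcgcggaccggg
Cenpf: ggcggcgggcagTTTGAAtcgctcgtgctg
Plk1: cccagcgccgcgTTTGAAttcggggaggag
Aurka: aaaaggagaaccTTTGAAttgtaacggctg
Cenpa: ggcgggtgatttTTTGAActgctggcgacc
Kif18b: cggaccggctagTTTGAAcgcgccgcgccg

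Among CDK1 and the mitotic cyclins, Ccnb2 moved most. Ccnb2 (ENSMUSG00000032218.7, chr9:70407692-70421547 in GENCODE M21 on GRCm38) encodes cyclin B2, a partner of CDK1. It stood at 1004 and 1021 normalized reads without IAA and 849 and 918 with IAA in the control line, at 838 and 842 with wild-type CTCF, and at 1001 and 1063 with mutated CTCF. The mutated CTCF libraries overlapped those of the untreated control, and both were above the other IAA libraries. Ccnb2 fell by 0.20 with IAA on the log2 scale (SE 0.059, adjusted p = 0.0072) and was higher with mutated than with wild-type CTCF by 0.30 (SE 0.059, adjusted p = 0.00011). Without the first control library with IAA, its IAA change was -0.14 (adjusted p = 0.14). Cdk1, the kinase itself, was at 4112 and 4340 reads untreated, 3764 and 3888 with IAA, 3660 and 3861 with wild-type CTCF, and 4059 and 4347 with mutated CTCF. Cdk1 fell by 0.14 with IAA (SE 0.041, adjusted p = 0.0046) and was 0.16 higher with mutated than with wild-type CTCF (SE 0.041, adjusted p = 0.0019). These calls did not hold without the second untreated library (adjusted p = 0.11) and without the second mutated CTCF library (adjusted p = 0.091), respectively. Ccnb1, which encodes cyclin B1, was at 2600 and 2757, 2612 and 2683, 2569 and 2806, and 2842 and 2940 reads in the same group order. Only the mutated CTCF libraries stood apart, 0.13 above the control with IAA (SE 0.045, adjusted p = 0.024; 0.10 with adjusted p = 0.18 without the second mutated CTCF library). Ccna2, encoding cyclin A2, had fold changes between 0.02 and 0.11 in the 4 comparisons, and it overlaps Exosc9 on the opposite strand.

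The mitotic kinases and the chromosomal passenger complex, which corrects kinetochore attachments, numbered 6. Against the control with IAA, wild-type CTCF gave 4 of the 6 genes higher and mutated CTCF 3, where 32.2% and 37.0% of the genes of like level were, and 1 rose with IAA itself. The counts rest on 6 genes and were not tested. Plk1, the Polo kinase of centrosome maturation and mitotic entry, was at 841 and 921 normalized reads untreated, 828 and 838 with IAA, 943 and 1030 with wild-type CTCF, and 909 and 907 with mutated CTCF. It rose with wild-type CTCF by 0.24 (SE 0.061, adjusted p = 0.0021), and by 0.18 without the second wild-type CTCF library (adjusted p = 0.066). Aurka, the Aurora kinase of spindle poles, was at 1330 and 1353, 1222 and 1260, 1367 and 1405, and 1413 and 1552 reads. The control with IAA was the lowest group, and Aurka rose above it by 0.16 with wild-type CTCF (SE 0.053, adjusted p = 0.019) and by 0.25 with mutated CTCF (SE 0.053, adjusted p = 0.00018). The former was 0.14 with adjusted p = 0.14 without the first control library with IAA. Incenp, the scaffold of the passenger complex, was at 2145 and 2045, 2024 and 1970, 2129 and 2252, and 2263 and 2519 reads. Both mutated CTCF libraries were the highest for Incenp, 0.26 above the control with IAA (SE 0.048, adjusted p = 4.6e-05). Its rise with wild-type CTCF was 0.13 (adjusted p = 0.032), or 0.09 (adjusted p = 0.25) without the second wild-type CTCF library, and its difference between the CTCF forms, 0.12 (adjusted p = 0.041), became 0.05 (adjusted p = 0.58) without the second mutated CTCF library.

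Birc5, encoding survivin, the subunit that brings the passenger complex to centromeres, rose in every IAA group against the untreated control. Its libraries were at 720 and 679 normalized reads untreated, 795 and 766 with IAA, 849 and 861 with wild-type CTCF, and 837 and 870 with mutated CTCF. The untreated control was the lowest group, and the 2 CTCF lines overlapped each other. Birc5 rose with IAA by 0.16 (SE 0.061, adjusted p = 0.040), a call lost without any 1 of the 4 libraries (adjusted p up to 0.28). Against the untreated control it was 0.29 higher with either CTCF form (adjusted p = 0.00018 and 0.00023). Aurkb, the kinase of the complex, was at 360 and 326, 411 and 337, 372 and 400, and 393 and 415 reads. Its replicates differed as widely as its groups, and its fold changes of 0.05 to 0.12 in the 4 comparisons had an SE of 0.090. Against the untreated control Aurkb was called 0.24 higher with mutated CTCF (adjusted p = 0.034). That call was lost under both rescalings, without either untreated library (0.16 with adjusted p = 0.32 without the second) and without the second mutated CTCF library. Cdca8, which encodes borealin, rose by 0.22 with wild-type CTCF (adjusted p = 0.0014) and by 0.19 with mutated CTCF (adjusted p = 0.0049, a call lost without the first mutated CTCF library).

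Of the spindle checkpoint genes, Bub1 and Bub1b fell with IAA and the others were not called. Bub1, a checkpoint kinase of the kinetochore, was at 3242 and 3358 normalized reads untreated, 2895 and 3019 with IAA, 3152 and 3025 with wild-type CTCF, and 3248 and 3264 with mutated CTCF. Both control libraries with IAA lay below all others. Bub1 fell by 0.16 with IAA (SE 0.040, adjusted p = 0.0017) and was 0.14 higher with mutated CTCF than in the control with IAA (SE 0.040, adjusted p = 0.0062). Without the first control library with IAA these values were -0.13 (adjusted p = 0.055) and 0.11 (adjusted p = 0.11). Bub1b, encoding the checkpoint protein BUBR1, fell by 0.16 with IAA (SE 0.040, adjusted p = 0.0015) and was higher by 0.11 with mutated than with wild-type CTCF (adjusted p = 0.027). Ttk, the checkpoint kinase MPS1, differed by 0.13 in that comparison (adjusted p = 0.020). Both differences lost their call without the first wild-type CTCF library and without the second mutated CTCF library, and that of Bub1b also without the second wild-type CTCF library. Bub3 and Mad2l1, which encode the checkpoint proteins BUB3 and MAD2, had fold changes between -0.02 and 0.09 in the 4 comparisons. Bub3 overlaps Fgfr2 on the opposite strand over 11674 bases.

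Cdc20, the activator of the anaphase-promoting complex that the checkpoint holds back, was highest with wild-type CTCF. Its libraries were at 433 and 453 normalized reads untreated, 476 and 488 with IAA, 547 and 612 with wild-type CTCF, and 536 and 501 with mutated CTCF. The groups did not overlap, with the untreated control lowest and wild-type CTCF highest. Relative to the control with IAA, Cdc20 rose by 0.26 with wild-type CTCF (SE 0.075, adjusted p = 0.0067), and by 0.18 without the second wild-type CTCF library (adjusted p = 0.15). Against the untreated control the rise was 0.39 (SE 0.075, adjusted p = 5.9e-05). The difference of -0.16 between mutated and wild-type CTCF did not pass (adjusted p = 0.099), but did without the first wild-type CTCF library, at -0.24 (adjusted p = 0.033).

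The centromere and kinetochore genes held both the strongest fall and the strongest rise with IAA. Cenpf (ENSMUSG00000026605.14, chr1:189640606-189688086) encodes a large protein of the outer kinetochore that accumulates in G2 phase. It was at 5226 and 5461 normalized reads untreated, 4355 and 4392 with IAA, 4039 and 4018 with wild-type CTCF, and 4965 and 4908 with mutated CTCF. The 4 groups did not overlap, and their order ran from the untreated control through mutated CTCF and the control with IAA down to wild-type CTCF. Cenpf fell by 0.29 with IAA (SE 0.036, adjusted p = 1.8e-08). Against the control with IAA it was lower by 0.12 with wild-type CTCF (fold change -0.12 in log2, adjusted p = 0.010) and higher by 0.17 with mutated CTCF (adjusted p = 0.00017). The difference between the forms was 0.29 (SE 0.036, adjusted p = 2.1e-08). The fall with wild-type CTCF lost its call without the second control library with IAA (-0.11, adjusted p = 0.075) and without the second wild-type CTCF library.

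Spc24 (ENSMUSG00000074476.6, chr9:21755442-21760303), a subunit of the NDC80 complex that binds microtubules, went the other way. Its libraries were at 334 and 302 normalized reads untreated, 471 and 443 with IAA, 457 and 485 with wild-type CTCF, and 359 and 387 with mutated CTCF. The control and wild-type CTCF libraries with IAA overlapped, and the mutated CTCF libraries lay between them and the untreated control. Spc24 rose with IAA by 0.52 (SE 0.083, adjusted p = 2.1e-06), a 1.44-fold rise. With mutated CTCF it was lower than in the control with IAA, by -0.29 in log2 (SE 0.083, adjusted p = 0.0049; -0.25 with adjusted p = 0.071 without the first control library with IAA, and the call was also lost without the first mutated CTCF library). Its log2 fold change between the CTCF forms was -0.34 (SE 0.083, adjusted p = 0.0014).

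The other subunits of the NDC80 complex were Nuf2, Ndc80 and Spc25. Nuf2 (ENSMUSG00000026683.14, chr1:169497934-169531464) was at 1277 and 1331 normalized reads untreated, 1358 and 1410 with IAA, 1379 and 1349 with wild-type CTCF, and 1587 and 1703 with mutated CTCF. Both mutated CTCF libraries stood above the other 6. With IAA its log2 fold change was 0.09 (adjusted p = 0.20). Nuf2 was 0.25 higher with mutated CTCF than in the control with IAA (SE 0.051, adjusted p = 0.00018) and 0.27 higher than with wild-type CTCF (SE 0.051, adjusted p = 6.2e-05). Ndc80 and Spc25 had log2 fold changes of -0.11 (adjusted p = 0.096) and -0.12 (adjusted p = 0.064) with IAA, and neither was called in the other 3 comparisons. Between the CTCF forms the values were 0.02 for Ndc80 (adjusted p = 0.79) and -0.04 for Spc25 (adjusted p = 0.54). Whether subunits differed from each other was not tested.

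Cenpa, the histone H3 variant that marks centromeres, was at 1112 and 1144 normalized reads untreated, 1011 and 998 with IAA, 1032 and 1138 with wild-type CTCF, and 1148 and 1251 with mutated CTCF. The control with IAA was lowest and mutated CTCF highest. Cenpa fell by 0.17 with IAA (SE 0.058, adjusted p = 0.020), a call lost without any 1 of the 4 libraries (adjusted p up to 0.15). It was 0.25 higher with mutated CTCF than in the control with IAA (SE 0.058, adjusted p = 0.00056), and 0.14 higher than with wild-type CTCF (adjusted p = 0.048, or 0.43 without the first wild-type CTCF library). Knl1, the scaffold on which BUB proteins assemble, fell by 0.15 with IAA (adjusted p = 0.0039), a call lost without the second untreated library and without the first control library with IAA. Its values with mutated CTCF differed by 0.01 from the control with IAA (adjusted p = 0.87). Cenpe, a kinetochore motor, was 0.10 higher with mutated CTCF than in the control with IAA (adjusted p = 0.034), a call lost without any 1 of the 4 libraries, under both rescalings and without the mean-variance trend.

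Spindle motors and microtubule proteins moved in both directions. Kif18b, a motor that shortens astral microtubules, was at 1030 and 1066 normalized reads untreated, 971 and 886 with IAA, 1106 and 1136 with wild-type CTCF, and 984 and 1105 with mutated CTCF. The control with IAA was the lowest group. Kif18b fell by 0.18 with IAA (SE 0.060, adjusted p = 0.019) (-0.11 with adjusted p = 0.27 without the second control library with IAA). It was 0.27 higher with wild-type CTCF (SE 0.060, adjusted p = 0.00053) and 0.17 higher with mutated CTCF (adjusted p = 0.026, or 0.42 without the second mutated CTCF library) than in the control with IAA. Kif4, the chromosome-bound motor KIF4, lies on the X chromosome and overlaps Pdzd11 on the opposite strand. Its libraries were at 3074 and 3124 reads untreated, 3379 and 3522 with IAA, 3264 and 3158 with wild-type CTCF, and 3250 and 3162 with mutated CTCF. The control with IAA was the highest group and the CTCF lines overlapped. Kif4 rose with IAA by 0.15 (SE 0.040, adjusted p = 0.0019, or 0.057 without the second control library with IAA), and the later differences of -0.10 and -0.11 had adjusted p = 0.044 and 0.036 (0.30 and 0.28 without that library). Tpx2, which activates Aurora A on the spindle, was 0.23 higher with mutated than with wild-type CTCF (adjusted p = 9.8e-06), and Nusap1, a spindle-bundling protein, 0.22 higher (adjusted p = 0.00012). Kif2c, a depolymerising motor of centromeres, rose with mutated CTCF against the control with IAA by 0.16 (adjusted p = 0.031), a call lost under both rescalings, without the trend, and without the second control library with IAA or either mutated CTCF library. The fold changes of Kif11, the motor that separates spindle poles, ran from 0.00 to 0.08 and none was called.

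**Figure D5:**
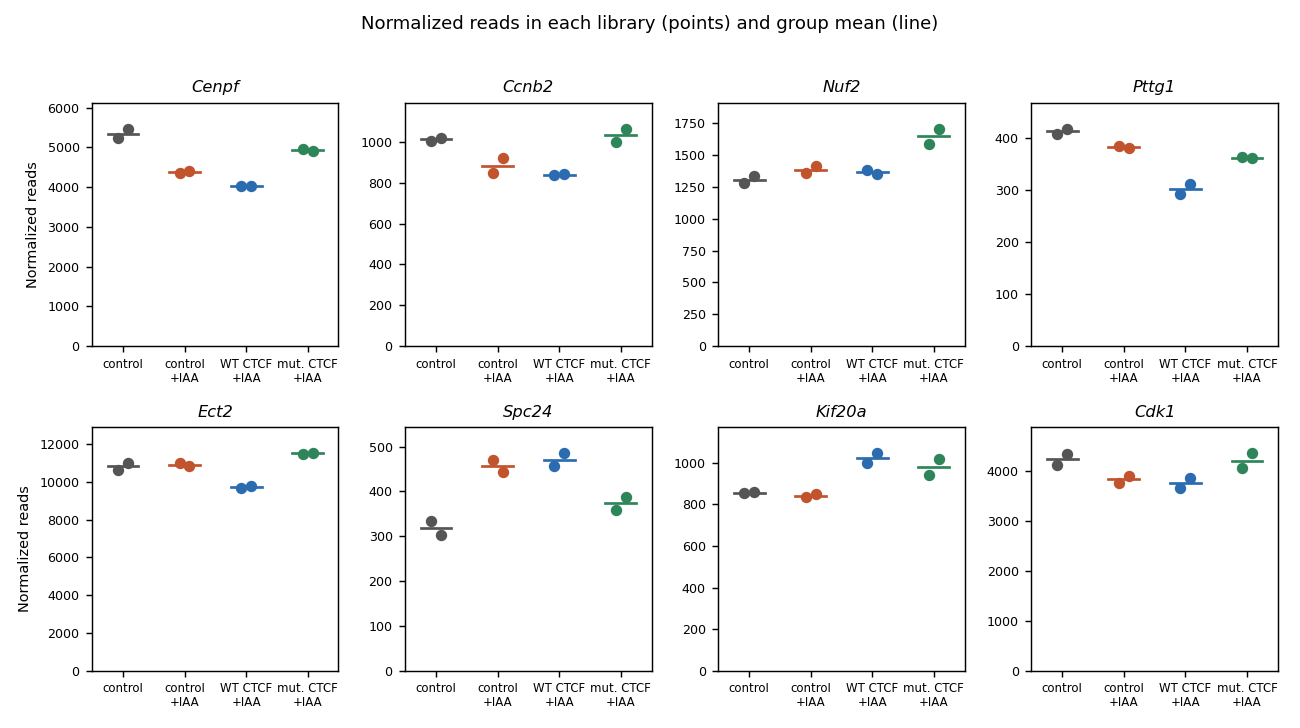
Normalized reads of 8 mitosis genes in each library (points), with the mean of the 2 libraries of each group (lines), on linear axes from 0. Cenpf falls from 5226 and 5461 reads untreated to 4039 and 4018 with wild-type CTCF, Spc24 rises with IAA and is lower with mutated CTCF, and Nuf2 and Ect2 are highest with mutated CTCF.

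Of the 7 genes of the central spindle and cytokinesis, 5 were higher with mutated than with wild-type CTCF, namely Ect2, Racgap1, Kif20b, Prc1 and Anln, where 22.7% of the genes of like level were. Prc1 and Anln lost the call without the first wild-type CTCF library and without the second mutated CTCF library. Without the mean-variance trend all of the 5 but Ect2 lost it. Ect2 (ENSMUSG00000027699.19, chr3:27097222-27153878) encodes the exchange factor that activates RhoA at the cleavage furrow. It was at 10641 and 11008 normalized reads untreated, 11016 and 10811 with IAA, 9683 and 9790 with wild-type CTCF, and 11496 and 11502 with mutated CTCF. Wild-type CTCF was the lowest and mutated CTCF the highest group, and the 2 control groups overlapped. Against the control with IAA, Ect2 fell by 0.16 with wild-type CTCF (SE 0.030, adjusted p = 4.3e-05) and was 0.08 higher with mutated CTCF (SE 0.030, adjusted p = 0.048, a call lost without any 1 of the 4 libraries and, at 0.02, under median of ratios). The difference between the forms was 0.24 (SE 0.030, adjusted p = 3.0e-08). Racgap1, the partner of the motor KIF23 in centralspindlin, was 0.20 higher with mutated than with wild-type CTCF (adjusted p = 0.00099). Kif23 itself fell by 0.12 with IAA (adjusted p = 0.0496), a call lost without any 1 of the 4 libraries. Kif20b, Prc1 and Anln, whose proteins act in the midzone, in microtubule bundling and in the furrow, were higher with mutated than with wild-type CTCF by 0.15, 0.14 and 0.11. Prc1 overlaps Rccd1 on the opposite strand over 21810 bases.

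Kif20a, a midzone motor that carries the passenger complex, was raised in both CTCF lines. Its libraries were at 853 and 858 normalized reads untreated, 837 and 848 with IAA, 1000 and 1045 with wild-type CTCF, and 939 and 1017 with mutated CTCF. The control libraries lay below all 4 libraries of the CTCF lines. Against the control with IAA, Kif20a rose by 0.28 with wild-type CTCF (SE 0.059, adjusted p = 0.00032) and by 0.21 with mutated CTCF (SE 0.059, adjusted p = 0.0039, or 0.11 without the second mutated CTCF library). It overlaps Cdc23, a subunit of the anaphase-promoting complex, on the opposite strand over 2327 bases.

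Of the 7 chromosome structure genes, wild-type CTCF gave 2 higher than the control with IAA (28.6%, against 32.2% of the genes of like level) and mutated CTCF 3 (42.9%, against 37.0%), so the group was near the background. Top2a, the topoisomerase that untangles sister chromatids, was at 6326 and 6204 normalized reads untreated, 6233 and 6286 with IAA, 6637 and 7040 with wild-type CTCF, and 7138 and 7035 with mutated CTCF. Its control groups overlapped and lay below both CTCF lines. Top2a rose by 0.13 with wild-type CTCF (SE 0.034, adjusted p = 0.0038, or 0.16 without the second wild-type CTCF library) and by 0.18 with mutated CTCF (SE 0.034, adjusted p = 5.9e-05). Under median of ratios the rise with wild-type CTCF was 0.071 (adjusted p = 0.075). Mki67, which encodes the chromosome surface protein Ki-67, was at 3389 and 3294, 3272 and 3313, 3758 and 3557, and 3382 and 3705 reads. It rose with wild-type CTCF by 0.15 (SE 0.042, adjusted p = 0.0052), and by 0.11 without the first wild-type CTCF library (adjusted p = 0.078). The mutated CTCF libraries of Mki67 were far apart, and its 0.10 difference from the control with IAA did not pass (adjusted p = 0.050). It passed without the first mutated CTCF library, at 0.17 (adjusted p = 0.0081), and under 4 of the other alternatives.

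Condensin I, which compacts mitotic chromosomes, did not move as a unit. Ncapd2, its HEAT-repeat subunit, was at 1210 and 1206 normalized reads untreated, 1458 and 1375 with IAA, 1285 and 1367 with wild-type CTCF, and 1396 and 1493 with mutated CTCF. The untreated libraries were the lowest. Ncapd2 rose with IAA by 0.23 (SE 0.053, adjusted p = 0.00062), while Smc2 fell by 0.12 (adjusted p = 0.0086) and Ncapg by 0.15 (adjusted p = 0.0042). The call of Smc2 was lost without the second untreated library or the first control library with IAA, and that of Ncapg without the second control library with IAA. Smc2, a shared ATPase subunit of both condensins, was 0.19 higher with mutated CTCF than in the control with IAA (adjusted p = 5.7e-05), and Ncapg, the other HEAT-repeat subunit, 0.15 higher (adjusted p = 0.0036, a call lost without the second control library with IAA). Smc4 and Ncaph, the second ATPase and the kleisin, were not called in the 4 comparisons. Ncapg overlaps Lcorl on the opposite strand, at a mean of 6008 normalized reads for Lcorl.

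Securin was the mitosis gene that fell most with wild-type CTCF. Pttg1 (ENSMUSG00000020415.16, chr11:43420250-43426251), which encodes this separase inhibitor, was at 408 and 417 normalized reads untreated, 384 and 381 with IAA, 293 and 312 with wild-type CTCF, and 364 and 361 with mutated CTCF. The 4 groups did not overlap, and both wild-type CTCF libraries were well below the rest. Pttg1 fell by 0.34 against the control with IAA (SE 0.083, adjusted p = 0.0018). It was 0.26 higher with mutated than with wild-type CTCF (SE 0.083, adjusted p = 0.013, or 0.10 without the first wild-type CTCF library and also lost without the first mutated CTCF library). Espl1, the separase gene, was at 523 and 519, 554 and 574, 573 and 622, and 577 and 659 reads. Its untreated libraries were the lowest, and over all libraries it was called only against the untreated control, 0.19 higher with wild-type CTCF (adjusted p = 0.028) and 0.24 higher with mutated CTCF (adjusted p = 0.0073). Both calls were lost without either untreated library and with equal totals. They were also lost without the second library of the CTCF line compared, where the values were 0.14 (adjusted p = 0.23) and 0.15 (adjusted p = 0.22). Without the first mutated CTCF library, Espl1 was 0.23 higher with mutated CTCF than in the control with IAA (adjusted p = 0.044), where all libraries gave 0.13 (adjusted p = 0.18).

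Against the untreated control, which shares libraries with the IAA comparison, the wild-type CTCF line had 11 mitosis genes higher and 10 lower, where 27.6% of all tested genes were higher and 15.6% lower (38.8% and 17.8% in the same level range). The mutated CTCF line had 21 higher and 2 lower, where 24.0% and 13.7% were (39.6% and 14.7% in the level range). With wild-type CTCF the widest changes were those of Spc24 (0.57, adjusted p = 4.5e-07), Pttg1 (-0.45, adjusted p = 2.9e-05) and Cenpf (-0.41, adjusted p = 4.1e-12). The 1.48-fold rise of Spc24 was the largest over all 6 comparisons. With mutated CTCF the widest were those of Nuf2 (0.33, adjusted p = 1.4e-06), Birc5 (0.29, adjusted p = 0.00023) and Racgap1 (0.27, adjusted p = 1.5e-05). These splits moved with the scale, as did the background. Under median of ratios wild-type CTCF gave 4 higher and 15 lower (8.70% and 32.6%, against 31.8% and 26.7% in the level range and 23.1% and 21.5% of all genes). Mutated CTCF gave 11 and 3 (23.9% and 6.52%, against 32.1% and 21.4% in the level range and 19.8% and 18.3% of all genes). With equal totals wild-type CTCF gave 4 and 19 (8.70% and 41.3%, against 27.5% and 31.4% in the level range and 20.4% and 24.4% of all genes). Mutated CTCF then gave 6 and 10 (13.0% and 21.7%, against 25.9% and 26.5% in the level range and 16.4% and 21.6% of all genes). For mutated CTCF, 8 were higher without the first untreated library or without the second mutated CTCF library (17.4%, near the 16.4% and 17.0% of all genes and below the level range in both cases, which stood at 29.2% in the latter). For wild-type CTCF, 6 were higher without the first untreated library and 5 without the second wild-type CTCF library (13.0% and 10.9%, against 29.4% and 29.6% in the level range and 19.8% and 19.9% of all genes). The fall of Cdk1, Ccnb2, Cenpf, Knl1, Nusap1, Ect2 and Pttg1 with wild-type CTCF held with each library left out and under both rescalings, as did the rise of Birc5, Nuf2, Tpx2, Racgap1, Top2a and Ncapd2 with mutated CTCF. The rise of Birc5, Cdc20, Spc24 and Kif20a with wild-type CTCF also held in these settings. Without the mean-variance trend wild-type CTCF gave 4 higher and 6 lower (8.70% and 13.0%, against 19.6% and 11.3% of all genes) and mutated CTCF 5 higher and 1 lower (10.9% and 2.17%, against 14.6% and 9.91%; 21.6% and 9.26% in the level range). Of the genes just named, Cdk1, Knl1 and Top2a lost their call there.

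Other genes of the same pathways were counted from lists of regulators and complex members. All these counts are on the authors' scale with every library. They were not repeated under rescaling, with a library left out or without the mean-variance trend. Of all tested genes, 19.4% were called higher and 18.4% lower for IAA, 21.5% and 10.01% for wild-type CTCF, 22.0% and 12.4% for the mutated form, and 16.3% and 18.4% between the forms. In the level range of the 46 genes these shares were 26.5% and 23.3%, 32.2% and 11.9%, 37.0% and 13.6%, and 22.7% and 21.0%. That range holds 28 of the 33 kinetochore genes, 23 of the 27 spindle genes, 19 of the 22 regulators of the G2 to M transition and 15 of the 18 G1 regulators counted below. Of 33 further kinetochore genes, 11 were lower and 2 higher with IAA, 5 higher and 0 lower with wild-type CTCF, 14 higher and 1 lower with mutated CTCF, and 10 higher and 3 lower in mutated against wild-type CTCF. The share lower with IAA was 33.3%, and the shares higher in the other 3 comparisons were 15.2%, 42.4% and 30.3%. Cenpk, of the inner kinetochore, fell by 0.44 with IAA (adjusted p = 2.8e-08) and was 0.34 higher with mutated than with wild-type CTCF (adjusted p = 8.3e-06). Nsl1, of the MIS12 complex, and Mad1l1, the checkpoint protein MAD1, had IAA changes of -0.19 (adjusted p = 0.0031) and 0.26 (adjusted p = 1.9e-08). Of 27 further spindle genes tested, the counts in the same order were 3 higher and 8 lower, 5 and 3, 11 and 0, and 5 and 2, so that 29.6% were lower with IAA and 18.5%, 40.7% and 18.5% higher in the others. Kif18a, a chromosome-alignment motor, and Aspm, a spindle pole protein, were higher with mutated than with wild-type CTCF by 0.28 (adjusted p = 1.2e-08) and 0.29 (adjusted p = 3.0e-07), whereas Ckap2 differed by -0.23 (adjusted p = 0.00070).

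Among 22 regulators of the G2 to M transition, 1 was higher and 7 lower with IAA, 12 higher and 2 lower with wild-type CTCF, 11 higher and 0 lower with mutated CTCF, and 4 higher and 2 lower between the forms (mutated minus wild-type). The share lower with IAA was 31.8%, the shares higher were 54.5% for wild-type CTCF and 18.2% between the forms, and 11 of the 22 were higher for mutated CTCF. Gtse1 fell by 0.40 with IAA (adjusted p = 6.8e-08) and rose with wild-type CTCF by 0.45 (adjusted p = 1.2e-08). Mastl, the Greatwall kinase that inhibits a CDK1-opposing phosphatase, fell by 0.23 with IAA (adjusted p = 3.9e-05) and rose with mutated CTCF by 0.25 (adjusted p = 9.6e-06). Rbbp4, a subunit of the MuvB core among other complexes, rose by 0.24 with either form (adjusted p = 1.0e-05 for both). The 17 genes of the anaphase-promoting complex gave 4 higher and 1 lower with IAA, 5 and 1, 4 and 1, and 3 and 3. The shares higher, 23.5%, 29.4%, 23.5% and 17.6%, lay above those of all tested genes and below those of the level range, in which 13 of the 17 lie. Anapc10 rose with IAA by 0.55 (adjusted p = 2.2e-15), Cdc26 was 0.32 higher with mutated than with wild-type CTCF (adjusted p = 0.00013), and Fzr1, the G1 activator CDH1, rose with wild-type CTCF by 0.42 (adjusted p = 0.00014). All 3 subunits specific to condensin II rose with wild-type CTCF, with Ncaph2 at 0.37 (adjusted p = 1.3e-05), and 2 rose with mutated CTCF.

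The 18 tested G1 regulators, which act before mitosis, were counted in the same way. With IAA, 3 were higher and 10 lower, with wild-type CTCF 12 were higher and 1 lower, and with mutated CTCF 7 were higher and 1 lower. Between the forms 2 were higher and 8 lower with mutated CTCF. The share lower with IAA was 55.6%, the shares higher in the wild-type and mutated lines were 66.7% and 38.9%, and the share lower between the forms was 44.4%. The second of the shares higher was near the 37.0% of the genes of like level. Cdkn1a, the CDK inhibitor p21, fell by 0.71 with IAA (adjusted p = 3.5e-14) and rose by 0.76 with wild-type CTCF (adjusted p = 1.5e-14) and by 0.52 with the mutated form (adjusted p = 2.9e-10). Cdk6 fell by 0.82 with IAA (adjusted p = 1.2e-21), and E2f3 was lower with mutated than with wild-type CTCF, at -0.33 (adjusted p = 5.5e-10). In that comparison, the median log2 fold change was -0.22 over the G1 regulators and 0.09 over the 46 mitosis genes. No test compared the 2 lists.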

How the data were processed

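Nascent RNA of 8 TT-seq libraries in 4 groups of 2 was analysed from 1 table. The authors deposited it as normalized signal, reads per gene divided by a library factor. Per the submitters' processing notes, Trim Galore, STAR, featureCounts and DESeq2 were used with mm10; versions, annotation release and use of strand in counting are not given in the sources used here. In 7 libraries 100% of values were whole multiples of 1 step (within 0.1 read), so reads were recovered. In the eighth, the second mutated CTCF library, the step is too near 1 to be told from unscaled values by the rule used, so count tests left out that line. Depth ran from 15671114 to 21561141 reads in those 7 libraries. Without molecular identifiers, reads may be copies of 1 molecule.

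Values were tested with limma 3.58.1 (R 4.3.3) on log2(value + 1), with 1 coefficient per group over all 8 libraries, a mean-variance trend, a minimum mean of 10 and Benjamini-Hochberg adjustment over 15818 genes within each of 6 comparisons. This understates changes of low genes. As alternatives, edgeR 4.0.16 called 6576, 5037 and 7514 genes and DESeq2 1.42.0 called 3858, 2616 and 4458 (IAA, wild-type CTCF against control with IAA, and against untreated control) on recovered reads. The other alternatives were no filter or a minimum mean of 50, a pseudocount of 0.5 or 10, rescaling to equal totals or by median of ratios, only the 2 groups compared, no trend, a replicate block and each library left out. The table had 0 columns outside the series.

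The genes and lists were chosen with earlier results of these data known. Given in every library are, per comparison (4 of them), the 3 highest and 3 lowest called fold changes, and 12 core genes whatever their values. Other lists name at most 3 genes, those with the lowest adjusted p. Same-numbered libraries deviated with a mean correlation across genes of 0.0037 (range -0.022 to 0.028), so the numbers were not taken to pair them. Across the 46 genes it ran from -0.38 to 0.29. A correlation cannot show a shift common to all genes. The median log2 difference of replicate 2 from replicate 1 was above 0 in every group, at 0.026 to 0.050. All 46 gene IDs, and 16917 of 16940, were found in GENCODE M21 on GRCm38, the assembly of mm10. Of the 46 genes, 9 overlap another listed gene, in each case on the opposite strand.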

Additional observations from a re-analysis of the deposited data

Results flagged for a closer look

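The changes with mutated and with wild-type CTCF, each against the control with IAA, differed in the 19 mitosis genes called between the forms. Calls were made with limma at an adjusted p under 0.05. The shared control cancels, so this repeats the direct comparison of the forms. Of all tested genes 16.3% were higher and 18.4% lower (22.7% and 21.0% in the level range). Without the mean-variance trend 8 of the 19 calls remained. Cdk1, Incenp, Bub1b, Ttk, Cenpa, Prc1, Anln, Smc2, Ncapg and Pttg1 lost their call in a fit with a library left out. The difference, mutated minus wild-type on the log2 scale, was 0.30 for Ccnb2, 0.29 for Cenpf, 0.27 for Nuf2, 0.26 for Pttg1, 0.24 for Ect2, 0.23 for Tpx2, 0.22 for Nusap1 and 0.20 for Racgap1. It was 0.16 for Cdk1, 0.15 for Kif20b, 0.14 for Cenpa and Prc1, 0.13 for Ttk, 0.12 for Incenp and Smc2, 0.11 for Bub1b, Anln and Ncapg, and -0.34 for Spc24. For Cenpf and Ect2 the 2 forms were called in opposite directions, although the rise of Ect2 with mutated CTCF was lost without any 1 of the 4 libraries, and the fall of Cenpf with wild-type CTCF was lost without the second control library with IAA (adjusted p = 0.075) and without the second wild-type CTCF library. Groups of 2 libraries allow no check for an outlying library.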

How the results depend on the processing

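No called mitosis gene changed sign under any alternative, but counts of calls depended on the scale and on the variance model. Below, the comparisons are taken in the order IAA, wild-type CTCF and mutated CTCF against the control with IAA, mutated against wild-type CTCF, and wild-type and mutated CTCF against the untreated control. Without the mean-variance trend the 46 genes gave 2, 1, 4, 7, 4 and 5 higher and 1, 1, 1, 1, 6 and 1 lower, and all genes called in the first 4 and the last were 3946, 2379, 3228, 3263 and 3869. Median of ratios gave 5 higher and 9 lower with wild-type CTCF, 15 higher with mutated CTCF, and 4 and 11 higher for the forms against the untreated control. It turned the median for wild-type CTCF to -0.013 relative to the treated control and -0.036 against the untreated one, and the median for mutated CTCF went to 0.077. Equal totals gave 3 higher and 22 lower with IAA (median -0.10), 9 lower with wild-type CTCF, 4 higher and 19 lower for wild-type CTCF against the untreated control (median reversed to -0.065), and 6 higher and 10 lower for mutated CTCF against it (median 0.0021).

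On recovered reads, edgeR gave 7 higher and 16 lower for IAA (21.0% and 20.5% of all genes), 6 higher and 10 lower with wild-type CTCF relative to the treated control (16.1% and 15.8%; median reversed to -0.012) and 5 higher and 17 lower against the untreated control (24.1% and 23.4%; median reversed to -0.040). DESeq2 called 3858, 2616 and 4458 of all genes in these comparisons, with 3 higher and 7 lower for IAA (13.1% and 11.2% of all genes), 2 higher and 6 lower (7.98% and 8.56%; median reversed to -0.014) relative to the treated control, and 4 higher and 13 lower (14.9% and 13.3%; median reversed to -0.039) against the untreated control. Both count tests were not run for the 3 comparisons with the mutated CTCF line. Leaving out each library in turn gave, in the same order of 6 comparisons, 3 to 6, 4 to 10, 13 to 22, 9 to 18, 5 to 10 and 8 to 18 higher, and 4 to 10, 2 to 4, 0 to 1, 1 to 3, 7 to 9 and 0 to 2 lower. All genes called ranged over 4284 to 4773, 3274 to 4622, 3963 to 4426, 3969 to 4875, 4996 to 6197 and 4234 to 5000. The median for wild-type CTCF against the untreated control ran from -0.0047 to 0.042. The cause of these shifts was not tested.

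With the replicate number as a block, members called were 7, 10, 27, 22, 11 and 23 higher and 15, 5, 2, 1, 11 and 2 lower. The shares higher were 15.2%, 21.7%, 58.7%, 47.8%, 23.9% and 50%. In the level range they were 29.1%, 36.5%, 40.8%, 26.1%, 41.8% and 43.1%. The shares lower were 32.6%, 10.9%, 4.35%, 2.17%, 23.9% and 4.35%, against 26%, 13.8%, 15.2%, 23.5%, 19.5% and 16.2% there. Of all tested genes, at most 29.2% were higher and at most 19.9% lower. All genes called rose to 6423, 5532, 5920, 5981, 7237 and 6397, and no call was lost. In 150 bases before the start, 33.3% of the 39 promoters held a CHR core and 28.2% both motifs, against 11.2% and 2.8% of all genes.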
